A study of Mus musculus with 3 samples.

Results

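Conventional type 1 dendritic cells (cDC1) were examined in mouse quadriceps muscle that had carried an implant for 6 weeks. A barcode was counted as a cDC1 when it held at least 1000 UMIs (unique molecular identifiers, each standing for 1 captured transcript), under 20% of them mitochondrial, at least 1 UMI of Ptprc (the gene of CD45), none of Pdgfra, at least 2 UMIs of Xcr1 and Clec9a together, at least 2 of H2-Aa, fewer than 5 C1q UMIs per 10000 and none of Ccr7. That rule found 72 cells among 19707 barcodes: 25 in replicate 1, 25 in replicate 2 and 22 in replicate 3. All 3 libraries belong to a single group of wild-type C57BL/6 mice, in which a piece of hindlimb muscle had been cut out (volumetric muscle loss) and replaced by particulate PCL, the synthetic polyester polycaprolactone. Muscle and implant were dissociated together, dead cells were removed, and magnetically separated CD45-positive and CD45-negative cells were mixed again in equal numbers before 10x Genomics 3′ sequencing. No uninjured, untreated or implant-free library was analysed here, so each comparison below sets cDC1 against another class of cells from the same libraries. The spread behind each p-value is what is left between libraries once the shift common to all classes of a library is removed. The labels do not say whether the libraries came from separate mice, so that spread may be technical.

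A cDC1 is a dendritic cell specialised in taking up dead cells and showing their antigens to CD8 T cells on MHC class I, a process called cross-presentation. The lineage depends on the transcription factors IRF8, BATF3 and ID2 and on the growth factor receptor FLT3. XCR1 is the receptor for a chemokine made by T and NK cells, and CLEC9A (DNGR-1) binds actin filaments exposed by dead cells. Conventional type 2 dendritic cells, the sister lineage, rely on IRF4 and mainly present antigen on MHC class II, and dendritic cells of either lineage gain CCR7 and costimulatory molecules when they mature and leave for the lymph node.

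Median depth over all barcodes was between 17009 and 20286 UMIs per library, and the 72 cDC1 had a median of 22179 UMIs (lowest 1859, highest 70959). Pairs of libraries shared 10 to 13 barcode sequences, none of them belonging to a cDC1. None of the 72 was among the barcodes with the highest doublet scores. The 3 other classes were gated in the same way, each with at least 2 UMIs of H2-Aa: 103 cells with Cd209a, no Xcr1 or Clec9a and little C1q (Cd209a DC), 44 cells with Ccr7 and Fscn1 (Ccr7 DC), and 847 C1q-high macrophages. Levels are given as CPM (a gene's part of the UMIs summed over the cells of a class in a library, scaled to a common total), and 3 levels in a row are replicates 1, 2 and 3.

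cDC1 made up 1.09%, 1.92% and 1.37% of the barcodes with Ptprc and without Pdgfra in replicates 1, 2 and 3, a mean of 1.46% ± 0.425 (SD, n = 3). The exact (Clopper-Pearson) 95% intervals were 0.705% to 1.60%, 1.25% to 2.83% and 0.863% to 2.07%, and they overlapped for all 3 libraries. Of all barcodes that passed the filters the share was 0.410% ± 0.091 (SD, n = 3), a figure that the equal remixing of the CD45 fractions can set. These intervals cover counting error only. Requiring a UMI of both Xcr1 and Clec9a left 40 cells, or 0.818% of the barcodes with Ptprc and without Pdgfra.

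The rule itself set the levels of Xcr1 and Clec9a, which are given as a description. Xcr1 stood at 126, 90.3 and 74.2 CPM and Clec9a at 139, 154 and 164 CPM in cDC1. Among the 72 cells, 40 held both transcripts, 30 held Clec9a without Xcr1 and 2 held Xcr1 without Clec9a. Those 30 cells had medians of 13 Irf8 and 9 Wdfy4 UMIs at a median depth of 18310 UMIs. The 40 with both had medians of 28.5 and 39.5 at 26877 UMIs. The 15 cells just inside the rule, with exactly 2 UMIs of the pair, had 851 CPM of Irf8, and the 32 cells just outside it, with exactly 1 UMI and every other limit met, had 379 CPM. All 3 cells with at least 40 UMIs of Siglech, a marker of plasmacytoid dendritic cells, were among those 15, and the 12 others had 487 CPM of Irf8. Batf3 ran the other way, at 25.1 CPM inside and 58.5 CPM outside, and Lyz2, a gene of macrophages and monocytes, was at 3927 and 3135 CPM.

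Lineage genes that the rule did not use were at high levels in all 3 cDC1 libraries, so the label was kept. Irf8, the transcription factor on which cDC1 depend, stood at 929.8, 1014 and 1069.8 CPM in cDC1, against 21.2, 75.0 and 44.9 CPM in the Cd209a DC. Wdfy4, which encodes a protein needed for cross-presentation of cell-associated antigen, reached 1184, 1131 and 1316 CPM against 249.6, 136 and 144 CPM. In both genes every cDC1 library lay above every library of the 3 other classes. Naaa, which encodes a lysosomal lipid hydrolase, was at 949, 1119 and 742 CPM against 162, 232 and 205 CPM. Cadm1, an adhesion molecule of the lineage, was at 269.5, 319.8 and 246 CPM against 3.03, 41.1 and 2.99 CPM. Tlr3, the endosomal sensor of double-stranded RNA, was at 71.2, 109 and 69.2 CPM against 0, 2.42 and 4.49 CPM. The Cd209a DC libraries lay below every cDC1 library for these 3 genes. Itgae, the gene of the integrin CD103, was at 123, 79.0 and 55.7 CPM against 14.1, 0 and 1.5 CPM. The level of Batf3 was 83.3, 132 and 123 CPM in cDC1 and 35.4, 16.9 and 49.4 CPM in the Cd209a DC, and neither Itgae nor Batf3 overlapped.

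**Figure D1:**
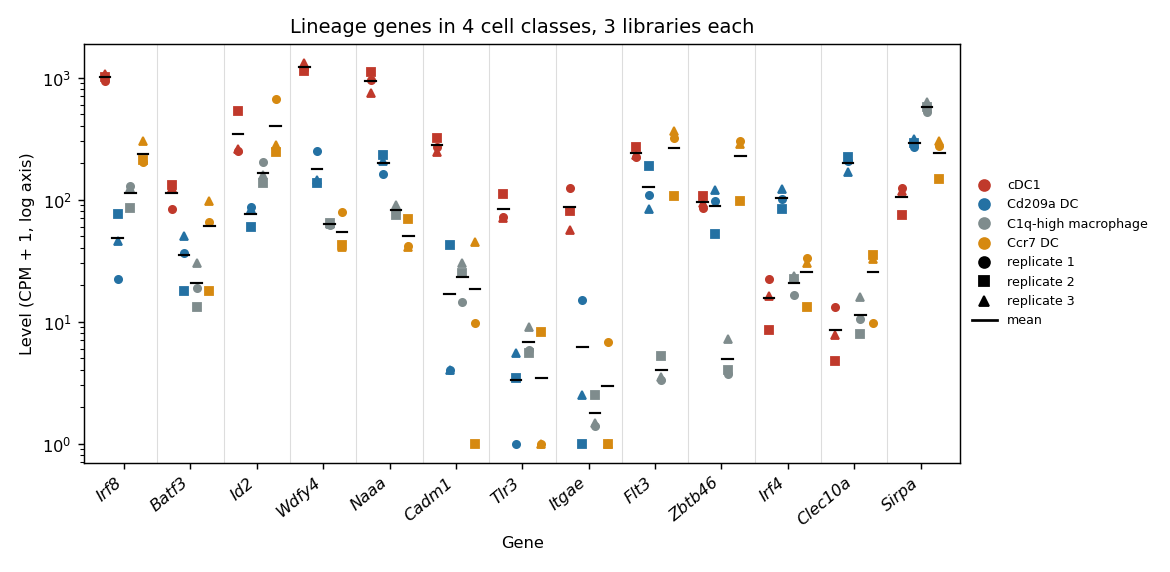
Levels of lineage genes in cDC1, Cd209a DC, C1q-high macrophages and Ccr7 DC (CPM + 1, log axis); each point is 1 library and each black line the mean of 3. Irf8 and Wdfy4 sat higher in every cDC1 library than in any library of the other classes, while Flt3 and Zbtb46 were shared with the other dendritic cell classes and near 0 in macrophages.

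Of the 17 listed cDC1 identity genes, 13 were tested besides Xcr1 and Clec9a, and 12 of them were higher in cDC1 than in the Cd209a DC by the test described further on, which called 2.22% of all genes tested higher and 4.87% in either direction. The list had a median log2 difference of 3.04 against 0.01 over all genes tested. This list serves as a check of the label. Without replicate 1, Irf8, Wdfy4 and Naaa still passed, and Cadm1, Tlr3 and Itgae did not, at log2 differences of 3.87, 4.55 and 6.01. Itgae also failed without replicate 3 (log2 3.60), and Tlr3 in cells without Mki67 or Top2a (log2 4.41). Snx22 and Tlr11 were too low to be tested. The tested gene that did not pass was Cd24a, a surface glycoprotein of the lineage, at 388, 331 and 341 CPM in cDC1 and 107, 119 and 159 CPM in the Cd209a DC (log2 1.46 ± 0.39 (SE), edgeR adjusted p = 0.051). Cd24a passed under 10 of 14 alternatives, among them the fit without the library block (log2 1.46, edgeR adjusted p = 0.041) and DESeq2 (adjusted p = 0.015). Over all of them the adjusted p lay between 6.4e-07 and 0.36. Gcsam, at 60.6, 41.4 and 48.9 CPM in cDC1 and 0 in every Cd209a DC library, was at least 34.7-fold higher, against a floor of 3 counts over the class.

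The 72 cells were not uniform. Irf8 was detected in 67 of them, Batf3 in 52, Tlr3 in 45 and Cadm1 in 37, at a median of 20.5 Irf8 UMIs and a highest value of 85. In Cd209a DC, Irf8 was detected in 34.0% of cells at a median depth of 16557 UMIs, against 93.1% of cDC1. After thinning every cell to 5000 UMIs the shares were 20.8% and 80.0%. Irf8 was also detected in 95.5% of Ccr7 DC (56.8% thinned) and 69.8% of C1q-high macrophages (41.6% thinned). In fibroblasts, which should lack the gene, 17.2% of cells held an Irf8 UMI at a median depth of 27088 UMIs, and 4.50% of 2000 thinned cells did. A core of 37 cells held Xcr1, Clec9a and Irf8 together with at least 10 Wdfy4 UMIs. Siglech was present in 7 cells, of which 3 held at least 40 UMIs. These 3 cells had 26 to 50 Irf8 UMIs, 2 to 5 Wdfy4 UMIs and no Xcr1. Xcr1 was undetected in 6 of the 7. Plasmacytoid markers summed to 46.7, 164 and 161 per 10000 UMIs in the 3 cells. A replicate 1 cell with 7 Siglech and 3 Wdfy4 UMIs had 152, and a replicate 3 cell with 2 and 1 had 78.9. The rest of the 7 had 16.9 and 1.68. Of 6 plasmacytoid markers tested, 5 were higher in cDC1 than in macrophages (10.7% of all genes). Against Ccr7 DC 3 were higher (6.94%), and against the Cd209a DC none (2.22%).

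Of the 72 cells, 10 held under 5% ribosomal protein UMIs, 4 in replicate 1, 2 in replicate 2 and 4 in replicate 3. Their median Malat1 level, a transcript retained in the nucleus, was 290.2 per 10000 UMIs against 63.0 in the other 62 cells, and their median H2-Aa count was 9.5 against 137. Irf8 had a median of 1 UMI in these 10 cells and 24 in the other 62. Barcodes below 5% made up 6.80% of Cd209a DC, 2.27% of Ccr7 DC and 19.2% of C1q-high macrophages. At least 10 UMIs of Mmp12, a macrophage elastase, were found in 10 of the 72 cells, and at least 10 UMIs of the neutrophil genes S100a8 and S100a9 in 5. Cd209a was detected in 12 of the 72, which had medians of 0 Xcr1 and 3.5 Wdfy4 UMIs, and 10 of them held at least 2 UMIs of it. In all, 26 of the 72 (36.1%) held a Siglech or Cd209a UMI or reached the Mmp12 or the neutrophil limit.

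**Figure D2:**
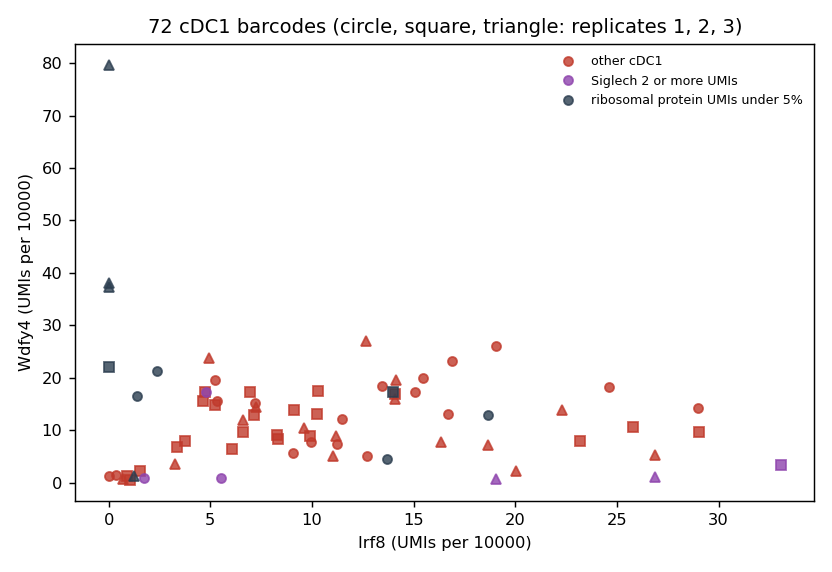
Irf8 against Wdfy4 in the 72 cDC1, each in UMIs per 10000 UMIs of the cell; colour marks cells with at least 2 Siglech UMIs and cells with under 5% ribosomal protein UMIs, and shape marks the replicate. All 72 cells held at least 1 Wdfy4 UMI, so its presence in the 5 cells without Irf8 does not set them apart. Those 5 had a median of 0.664% ribosomal protein UMIs. The 3 cells with at least 40 Siglech UMIs held Irf8 with at most 5 Wdfy4 UMIs.

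Against the Cd209a DC 172 genes were higher in cDC1 and 206 lower of 7756 tested (edgeR quasi-likelihood test with the library as a block, with p under 0.05 after Benjamini-Hochberg adjustment and log2 at or beyond 1 either way). That is 2.22% of the genes tested called higher, 2.66% called lower and 4.87% called in either direction. The count depended on the libraries: without replicate 1 only 10 genes were higher and 15 lower, and without replicate 3 the counts were 65 and 44. Leaving out every cell with a UMI of Mki67 or Top2a, genes of dividing cells, gave 57 and 32.

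Genes listed for the sister lineage and for monocyte-derived dendritic cells were mostly lower in cDC1 than in the Cd209a DC. Of 14 tested genes on the list of type 2 and monocyte-derived dendritic cells, 9 were lower and none higher, with a median log2 difference of -1.76. The share of all genes called lower was 2.66%. Irf4, the transcription factor of that lineage, was at 21.2, 7.52 and 15.2 CPM in cDC1 and 101, 82.3 and 121 CPM in the Cd209a DC (log2 -2.77 ± 0.35 (SE), edgeR adjusted p = 0.0013). Clec10a, a lectin of type 2 dendritic cells, was at 12.1, 3.76 and 6.75 against 207, 223 and 168 CPM (log2 -4.67 ± 0.46 (SE), edgeR adjusted p = 0.00035). Every cDC1 library lay below every Cd209a DC library for both. Mgl2, a related lectin (log2 -5.24 ± 0.67 (SE), edgeR adjusted p = 0.0013), Sirpa, which encodes an inhibitory receptor (log2 -1.48 ± 0.23 (SE), edgeR adjusted p = 0.0038), and Itgam, the gene of CD11b (log2 -1.56 ± 0.27 (SE), edgeR adjusted p = 0.0064), were lower as well. Without replicate 1, Irf4 and Clec10a still passed, while Mgl2, Sirpa and Itgam did not, at log2 differences of -5.98, -1.68 and -1.93. Sirpa and Itgam also failed without replicate 3, at -1.51 and -1.5. In cells without Mki67 or Top2a, Irf4, Sirpa and Itgam did not pass, at -1.68, -0.82 and -0.94, and Itgam did not after thinning to 2000 UMIs (log2 -0.96). The Cd209a DC had been chosen on Cd209a, itself a gene of this list, and whether they are type 2 or monocyte-derived was not tested.

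Among 21 transcription factors of dendritic cells, 3 were higher in cDC1 (Irf8, Batf3 and Id2) and 3 lower (Irf4, Batf and Zeb2). The shares of all genes tested were 2.22% higher and 2.66% lower. Zeb2, which opposes the cDC1 fate, was at 810.1, 357 and 634 CPM in cDC1 and 1371, 1045 and 1702 CPM in the Cd209a DC (log2 -1.23 ± 0.24 (SE), edgeR adjusted p = 0.012). Zbtb46, a factor common to conventional dendritic cells, was at 84.8, 105 and 92.8 and 96.0, 50.8 and 118 CPM (log2 0.16 ± 0.35 (SE), edgeR adjusted p = 0.86), and the libraries overlapped. Without replicate 1, the calls of Batf3, Id2, Batf and Zeb2 were lost, at log2 differences of 2.16, 2.48, -1.85 and -1.47. Leaving out replicate 3 ended the same 4 calls, at 2.06, 2.52, -1.08 and -1.11. Batf also failed without replicate 2 (log2 -1.13), and without the library block Batf3 had a log2 difference of 1.67 and an edgeR adjusted p of 0.067. The log2 difference of Batf was -0.33 (edgeR adjusted p = 0.84) in cells without Mki67 or Top2a, where Batf3 and Id2 did not pass either, at 1.60 and 1.92. Batf also failed without the cDC1 that held transcripts of other types (log2 -1.22).

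Among the 21 listed genes of MHC class I and cross-presentation, 5 were higher in cDC1 than in the Cd209a DC (Wdfy4, Psmb8, Psmb9, Tap1 and Tap2) and none lower. The share of all genes called higher was 2.22%. Psmb9, a catalytic subunit of the immunoproteasome, which cuts proteins into peptides for class I, was at 280.1, 410.1 and 334 CPM in cDC1 and 80.8, 111 and 62.9 CPM in the Cd209a DC (log2 2.02 ± 0.29 (SE), edgeR adjusted p = 0.0026). Psmb8, another catalytic subunit, was at 575, 734 and 665 against 272, 305 and 243 CPM (log2 1.27 ± 0.22 (SE), edgeR adjusted p = 0.0062). Every cDC1 library lay above every Cd209a DC library for both. Tap1 and Tap2 form the pump that carries peptides into the endoplasmic reticulum. Tap1 was at 132, 184 and 137 against 76.8, 70.2 and 67.4 CPM (log2 1.06 ± 0.27 (SE), edgeR adjusted p = 0.045) and Tap2 at 103, 139 and 129.9 against 43.4, 38.7 and 53.9 CPM (log2 1.44 ± 0.21 (SE), edgeR adjusted p = 0.0027). The class I heavy chain H2-K1 did not pass, at 566, 489 and 555 and 872, 719 and 746 CPM (log2 -0.54 ± 0.17 (SE), edgeR adjusted p = 0.091). Without replicate 1 none of Psmb8, Psmb9, Tap1 and Tap2 passed, at log2 differences of 1.36, 2.13, 1.24 and 1.56. Tap1 also failed without replicate 2 (log2 0.87) and without replicate 3 (log2 1.08), and Psmb8 without replicate 3 (log2 1.19). Psmb8, Tap1 and Tap2 did not pass in cells without Mki67 or Top2a, at log2 differences of 0.96, 0.50 and 1.32.

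Tap1 and Psmb9 are neighbours that are read in opposite directions, and because both were higher in cDC1 the 225 bases between their start sites are shown. The stretch lies at chr17:34187331-34187555 of GRCm38.p6 (RefSeq), and is written on the plus strand, along which Tap1 is transcribed, with Psmb9 starting at its left edge on the minus strand. Capitals mark the reverse complement of GGGGCGGGG, a GC box of the kind bound by SP1-family factors, which was picked after the sequence had been read.
Tap1-Psmb9: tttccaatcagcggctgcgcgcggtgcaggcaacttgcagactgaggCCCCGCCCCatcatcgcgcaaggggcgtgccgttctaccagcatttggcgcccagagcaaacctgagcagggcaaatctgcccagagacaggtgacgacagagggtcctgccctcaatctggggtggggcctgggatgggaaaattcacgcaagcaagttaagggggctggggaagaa
Searched on both strands, GGGGCGGGG occurred once here, and 10.4% of 32851 RefSeq promoters hold it in the 250 bases before the start. TTCNNNGAA, the core of STAT sites (7.02% of promoters), was not found, nor were an interferon-stimulated response element (2.98%) and an NF-kB site (0.356%), which says only that these letters are not in this window.

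Most MHC class II genes did not differ detectably between cDC1 and the Cd209a DC. All 4 classes had been chosen on a class II gene, H2-Aa, which was itself not tested, so every comparison of class II genes is between cells already selected to hold one. H2-Ab1, a class II chain, was at 4587, 6522 and 5042 CPM in cDC1 and 5572, 4346 and 5443 CPM in the Cd209a DC (log2 0.07 ± 0.18 (SE), edgeR adjusted p = 0.89), and the libraries overlapped. Of 13 class II presentation genes tested, 1 passed, which is near the 4.87% of all genes called in either direction. The gene was March1 (Marchf1), a ubiquitin ligase that removes class II from the surface, at 161, 173 and 219 against 52.5, 65.3 and 80.9 CPM (log2 1.5 ± 0.21 (SE), edgeR adjusted p = 0.0024). Without replicate 1 it did not pass (log2 1.44).

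Receptors and signals of cDC1 and the Cd209a DC differed in a few genes. Of 18 growth factor and cytokine receptors tested, 1 was higher (Kit) and none lower. Of 14 costimulation and checkpoint genes 1 was higher (Btla) and 1 lower (Cd80). Of 16 cytokines and chemokines 2 were lower, Il1b among them, and none higher. With 2.22% of all genes higher and 2.66% lower, the counts of receptors and costimulation genes were not far from these shares. Btla, an inhibitory receptor, was at 183, 147 and 194 CPM in cDC1 and 26.3, 16.9 and 34.4 CPM in the Cd209a DC (log2 2.78 ± 0.32 (SE), edgeR adjusted p = 0.00084). Kit, the stem cell factor receptor, was at 117, 137 and 152 against 41.4, 31.5 and 29.9 CPM (log2 1.96 ± 0.31 (SE), edgeR adjusted p = 0.0038). Neither gene had overlapping libraries. Flt3 was at 221, 269 and 229 against 107, 189 and 82.4 CPM (log2 0.96 ± 0.41 (SE), edgeR adjusted p = 0.22). Il1b, an inflammatory cytokine, was at 704, 572 and 609 against 2349, 1880.1 and 1396 CPM (log2 -1.54 ± 0.26 (SE), edgeR adjusted p = 0.0061). Cd80, a costimulatory ligand, was also lower in cDC1, at 114, 129.8 and 162 against 394, 225 and 322 CPM (log2 -1.2 ± 0.27 (SE), edgeR adjusted p = 0.024). Cd86, its relative, did not pass (log2 -0.92 ± 0.28 (SE), edgeR adjusted p = 0.079). Without replicate 1, Btla, Kit, Il1b and Cd80 fell short of the threshold, at log2 differences of 2.77, 2.24, -1.45 and -0.89, and Cd80 also without replicate 3 (log2 -1.31). Il1b and Cd80 did not pass in cells without Mki67 or Top2a, at -1.40 and -0.93. Neutrophil markers, of which none of 7 tested passed, summed to 498 to 1142 CPM in the cDC1 libraries and 463 to 8145 CPM in the Cd209a DC, and their part in the Il1b difference was not tested.

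Among 14 tested sensors of microbial products, Tlr3 and Clec12a were higher in cDC1 than in the Cd209a DC and Ddx58 and Ifih1 lower. The shares of all genes tested were 2.22% higher and 2.66% lower. Clec12a, an inhibitory lectin that senses uric acid crystals, was at 81.8, 94.1 and 69.2 CPM in cDC1 and 18.2, 36.3 and 41.9 CPM in the Cd209a DC (log2 1.46 ± 0.35 (SE), edgeR adjusted p = 0.031). Ifih1, a cytosolic sensor of double-stranded RNA, was at 24.2, 3.76 and 11.8 against 68.7, 38.7 and 34.4 CPM (log2 -1.83 ± 0.45 (SE), edgeR adjusted p = 0.037). The libraries did not overlap for either gene, whereas those of Ddx58, which encodes the related sensor RIG-I, did. Without the library block the calls of Clec12a, Ddx58 and Ifih1 were lost, at edgeR adjusted p of 0.052, 0.065 and 0.051. None of Clec12a, Ddx58 and Ifih1 passed when any 1 replicate was left out, with log2 differences of 1.12 to 1.80, -1.96 to -1.37 and -2.24 to -1.54. Clec12a and Ifih1 also failed in cells without Mki67 or Top2a, at 1.2 and -1.80. Ddx58 and Ifih1 failed in cells with at least 5% ribosomal protein UMIs, at -1.52 and -1.75, and Ddx58 without the highest doublet scores (log2 -1.5).

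Cst3, which encodes the protease inhibitor cystatin C, was among the most abundant transcripts of cDC1, at 9534, 11104 and 7839.6 CPM against 2595, 2328 and 1921 CPM in the Cd209a DC (log2 2.07 ± 0.22 (SE), edgeR adjusted p = 0.00057). Every cDC1 library lay above every library of the other 3 classes. Without replicate 1 the log2 difference was 2.17 and did not pass. Cst3 belongs to a list of 14 lysosomal genes, of which 2 were higher and 1 lower, against 2.22% and 2.66% of all genes. Mrc1, the mannose receptor, was at 21.2, 3.76 and 20.2 CPM in cDC1 and 444, 131 and 695 CPM in the Cd209a DC (log2 -4.71 ± 0.69 (SE), edgeR adjusted p = 0.0027), and also did not pass without replicate 1 (log2 -4.98). Among 13 tested genes for taking up dead cells and antigen, 1 was lower (Mrc1) and none higher, a number not far from the share of all genes.

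Outside the lists, the genes with the largest excess in cDC1 over the Cd209a DC included Ccser1, at 204, 181 and 268 against 1.01, 7.26 and 0 CPM, and P3h2, a collagen prolyl hydroxylase, at 157, 105 and 111 against 0, 2.42 and 2.99 CPM. Tbc1d8 was at 733, 502 and 505 against 40.4, 62.9 and 55.4 CPM (log2 3.51 ± 0.38 (SE), edgeR adjusted p = 0.00059). No library of the Cd209a DC reached any cDC1 library for these 3 genes. The genes furthest in the other direction included Lcn2, an iron-sequestering protein of neutrophils and macrophages, at 6.06, 0 and 0 against 121, 67.8 and 35.9 CPM (log2 -5.12 ± 0.51 (SE), edgeR adjusted p = 0.00037), and Ptgs2, the inducible cyclooxygenase, at 59.1, 7.52 and 1.69 against 205, 201 and 192 CPM (log2 -3.32 ± 0.58 (SE), edgeR adjusted p = 0.0065). Without replicate 1, Lcn2 and Ptgs2 still passed, and Ccser1, P3h2 and Tbc1d8 did not, at log2 differences of 6.26, 5.26 and 3.12. Ptgs2 did not pass without replicate 3 (log2 -2.73), and neither Lcn2 nor Ptgs2 passed in cells without Mki67 or Top2a, at -3.97 and -2.55. In the Cd209a DC the neutrophil markers, at 8145, 4305 and 463 CPM in sum, took the same order over the 3 libraries as Lcn2, and their part in the Lcn2 difference was not tested.

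Against C1q-high macrophages, 828 genes were higher in cDC1 (10.7% of 7756 tested) and 1048 lower (13.5%), or 24.2% in either direction. Without replicate 1 the number lower was 693. Of 13 MHC class II presentation genes tested, 10 were higher in cDC1 and 2 lower, with a median log2 difference of 1.46 against -0.01 over all genes. H2-Ab1 was at 1486, 1609.8 and 2199.8 CPM in macrophages (log2 1.63 ± 0.19 (SE), edgeR adjusted p = 8.8e-05). Ciita, the master regulator of class II genes, was at 118, 86.5 and 99.6 CPM in cDC1 and 22.7, 17.1 and 27.7 CPM in macrophages (log2 2.17 ± 0.22 (SE), edgeR adjusted p = 4.2e-05). Every cDC1 library lay above every macrophage library for both. The lower pair were the lysosomal proteases Ctss and Lgmn.

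Lysosomal genes ran the other way, with 11 of 14 tested lower in cDC1 and 2 higher. Of all genes tested 13.5% were lower and 10.7% higher, so the number of lysosomal genes called higher was near that share. Ctsb, cathepsin B, was at 563, 729.9 and 476 CPM in cDC1 and 4939, 4788 and 5319.6 CPM in macrophages (log2 -3.05 ± 0.33 (SE), edgeR adjusted p = 5.6e-05). Lgmn, the asparagine-specific protease legumain, was at 167, 103 and 152 against 1083, 1052 and 1159 CPM (log2 -2.96 ± 0.23 (SE), edgeR adjusted p = 6.1e-06). The libraries did not overlap for either gene. The higher pair were Cst3 (log2 2.91 ± 0.23 (SE), edgeR adjusted p = 6.7e-06) and Ctse, cathepsin E (log2 4.13 ± 0.47 (SE), edgeR adjusted p = 7.9e-05). Of the 21 genes of MHC class I and cross-presentation, 7 were higher and 2 lower, and the number lower was near the 13.5% of all genes. Psmb9 was at 37.1, 28.9 and 38.1 CPM in macrophages (log2 3.28 ± 0.29 (SE), edgeR adjusted p = 1.5e-05) and Tap1 at 30.2, 32.3 and 25.8 CPM (log2 2.35 ± 0.26 (SE), edgeR adjusted p = 7.3e-05). B2m, the invariant chain of class I, was lower in cDC1, at 1364, 1001 and 1018 against 2457, 2657 and 2429.7 CPM (log2 -1.17 ± 0.20 (SE), edgeR adjusted p = 0.00095), and was not called in cells without Mki67 or Top2a (log2 -0.87).

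**Figure D3:**
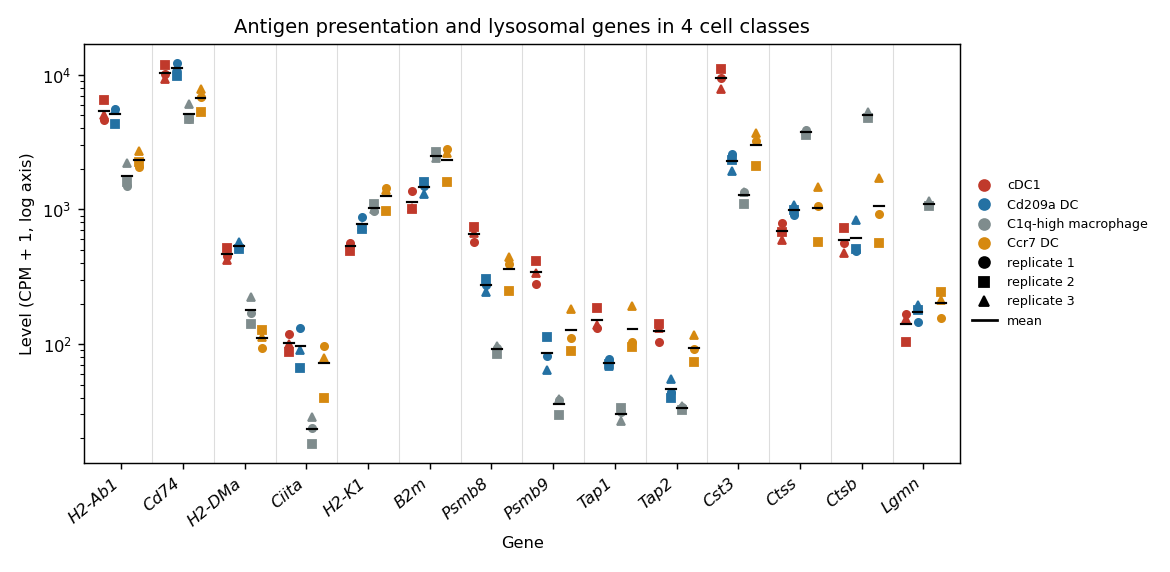
Levels of antigen presentation and lysosomal genes in the 4 classes (CPM + 1, log axis); points are libraries and black lines means of 3. Psmb8 and Psmb9 sat higher in each cDC1 library than in any Cd209a DC or macrophage library, while Ctsb and Lgmn were highest in macrophages.

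Of 18 growth factor and cytokine receptors tested, 2 were higher in cDC1 than in macrophages and 6 lower. Over all genes tested 10.7% were higher and 13.5% lower, so the number of receptors called higher was near that share. Flt3 was at 2.31, 4.18 and 2.52 CPM in macrophages (log2 6.39 ± 0.52 (SE), edgeR adjusted p = 8.7e-06) and Kit at 4.37, 6.08 and 2.36 CPM (log2 5.06 ± 0.33 (SE), edgeR adjusted p = 2.5e-06), while Csf1r, the receptor for the macrophage growth factor, was at 138, 73.4 and 82.7 CPM in cDC1 and 634, 580.4 and 667 CPM in macrophages (log2 -2.69 ± 0.30 (SE), edgeR adjusted p = 6.4e-05). Zbtb46 was at 2.70, 3.04 and 6.14 CPM in macrophages (log2 4.66 ± 0.40 (SE), edgeR adjusted p = 1.3e-05). Of the receptors for taking up dead cells and other cargo, 9 of 13 tested were lower in cDC1 and 1 higher. Mertk, a receptor for dying cells, was at 10.6, 11.3 and 13.5 CPM in cDC1 and 197, 151 and 218 CPM in macrophages (log2 -4.00 ± 0.36 (SE), edgeR adjusted p = 1.9e-05). The one higher was Havcr2, the gene of TIM-3, at 90.9, 150.5 and 119.8 against 38.8, 52.1 and 24.7 CPM (log2 1.71 ± 0.41 (SE), edgeR adjusted p = 0.0067). Outside the lists, Htr7, a serotonin receptor, was at 574, 611 and 634 CPM in cDC1 and 9.0, 16.0 and 6.61 CPM in macrophages (log2 5.91 ± 0.34 (SE), edgeR adjusted p = 1.1e-06), and Gpr171 at 244, 237 and 245 against 2.18, 1.14 and 1.26 CPM (log2 7.15 ± 0.26 (SE), edgeR adjusted p = 6.4e-08). The 17 macrophage markers summed to 1765 to 4163 CPM in the cDC1 libraries and 29608 to 35322 CPM in the macrophage libraries. None of the 17 was at 0 in cDC1, and the part of macrophage RNA in these levels was not tested.

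Against Ccr7 DC, 538 genes were higher in cDC1 (6.94% of those tested) and 712 lower (9.18%), or 16.1% in either direction. Of 15 tested maturation genes, 14 were lower in cDC1 and none higher, with a median log2 difference of -3.94 against -0.01 over all genes. The Ccr7 DC were chosen on Ccr7 and Fscn1, which are themselves maturation genes and are not among the 15. Ccl22, a chemokine of mature dendritic cells, was at 33.3, 11.3 and 13.5 CPM in cDC1 and 3683, 1472 and 3336 CPM in Ccr7 DC (log2 -7.18 ± 0.26 (SE), edgeR adjusted p = 6.6e-08). Il4i1, an amino acid oxidase, was at 4.54, 0 and 3.37 against 343, 254 and 576 CPM (log2 -7.13 ± 0.50 (SE), edgeR adjusted p = 9.5e-06). No cDC1 library reached a Ccr7 DC library for either gene. Relb, an NF-kB subunit, was at 59.1, 86.5 and 64.1 against 521, 189 and 626 CPM (log2 -2.62 ± 0.36 (SE), edgeR adjusted p = 0.00058). The exception was Cd83, which did not pass (log2 -0.46 ± 0.28 (SE), edgeR adjusted p = 0.27). Without replicate 1 the counts were 267 and 321 genes, and without replicate 3 323 genes were higher. Both classes also held transcripts of other cell types. The 8 neutrophil markers, none at 0, summed to 11492, 404 and 4249.9 CPM in Ccr7 DC against 498 to 1142 CPM in cDC1. The 12 implant macrophage transcripts, again none at 0, summed to 7381, 3443 and 18908 CPM against 4380 to 5984 CPM. The 5 endothelial markers summed to 151, 1344 and 8.41 CPM against 34 to 54 CPM, with Emcn at 0 in cDC1. The part of these transcripts in the differences from Ccr7 DC was not tested.

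Of 14 costimulation and checkpoint genes tested, 6 were lower in cDC1 than in Ccr7 DC and 2 higher. The shares of all genes tested were 9.18% lower and 6.94% higher, and the 2 called higher were not far from the second share. Cd40, the receptor for T cell help, was at 18.2, 5.64 and 3.37 CPM in cDC1 and 137, 79.9 and 229 CPM in Ccr7 DC (log2 -3.94 ± 0.55 (SE), edgeR adjusted p = 0.00058). Cd274, which encodes the checkpoint ligand PD-L1, was at 40.9, 13.2 and 40.5 against 355, 133 and 406 CPM (log2 -3.19 ± 0.40 (SE), edgeR adjusted p = 0.0003). Neither gene had overlapping libraries. Il12b, a subunit of interleukin 12, was at 0, 1.88 and 13.5 against 69.8, 77.5 and 446 CPM (log2 -5.27 ± 0.63 (SE), edgeR adjusted p = 0.00051), and Ccl5 at 4.54, 0 and 0 against 1324, 79.9 and 1484 CPM (log2 -9.06 ± 0.63 (SE), edgeR adjusted p = 9.5e-06). Il15ra, which presents interleukin 15 to lymphocytes, was lower too (log2 -4.18 ± 0.58 (SE), edgeR adjusted p = 0.0006). Of 16 cytokine and chemokine genes tested, 7 were lower in cDC1 and none higher. Cd40 and Il12b did not pass in cells without Mki67 or Top2a, at log2 differences of -2.31 and -3.28 (edgeR adjusted p of 0.068 and 0.073). The Ccr7 DC sums of that setting held 8, 8 and 15 cells.

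**Figure D4:**
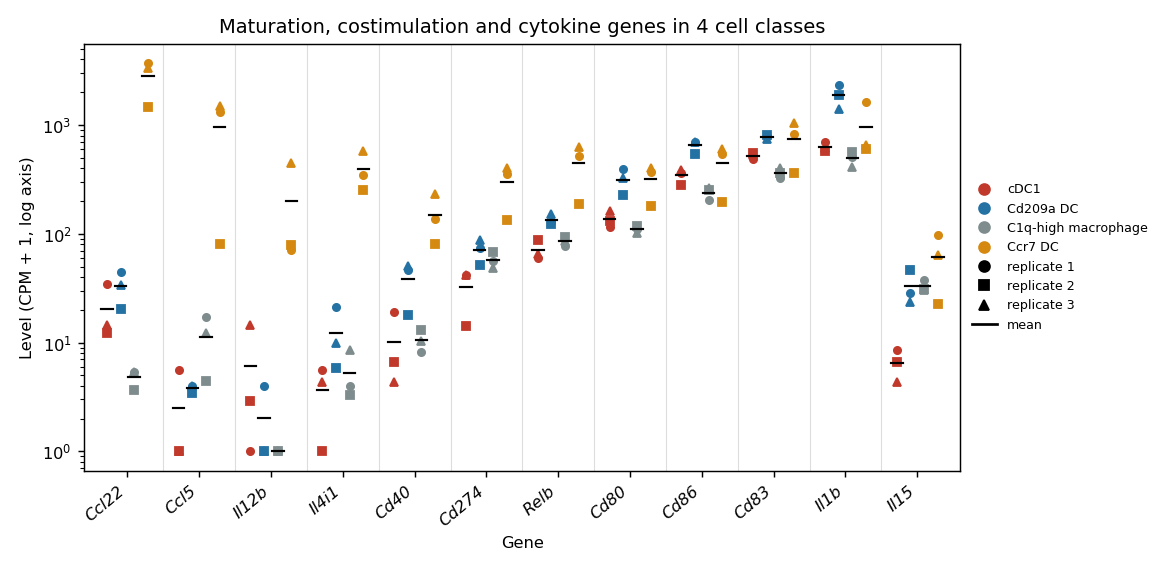
Levels of maturation, costimulation and cytokine genes in the 4 classes (CPM + 1, log axis); points are libraries and black lines means of 3. Ccl22, Il4i1, Cd40 and Cd274 sat higher in every Ccr7 DC library than in any cDC1 library.

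Of 13 class II presentation genes tested, 5 were higher in cDC1 than in Ccr7 DC and 1 lower, and of 21 genes of MHC class I and cross-presentation 3 were higher and 3 lower. Of all genes tested 6.94% were higher and 9.18% lower. The numbers of class I genes either way, and of class II genes lower, were not far from these shares. H2-DMa, a class II peptide loader, was at 453, 519 and 418 CPM in cDC1 and 93.1, 126 and 111 CPM in Ccr7 DC (log2 2.08 ± 0.21 (SE), edgeR adjusted p = 9.7e-05). H2-Ab1 was at 2054, 2247 and 2735 CPM in Ccr7 DC (log2 1.21 ± 0.19 (SE), edgeR adjusted p = 0.0012). Of the class I genes, H2-K1 was lower in cDC1 (log2 -1.23 ± 0.17 (SE), edgeR adjusted p = 0.00057) and so was Nlrc5, the transactivator of class I genes, at 34.8, 18.8 and 28.7 against 108, 84.7 and 177 CPM (log2 -2.19 ± 0.37 (SE), edgeR adjusted p = 0.0018). Psmb9 was higher (log2 1.43 ± 0.29 (SE), edgeR adjusted p = 0.0049) and Tap1 did not pass (log2 0.21 ± 0.27 (SE), edgeR adjusted p = 0.63). Without replicate 1, H2-Ab1, H2-K1 and Psmb9 did not pass, at log2 differences of 1.23, -1.18 and 1.46. In cells without Mki67 or Top2a Psmb9 did not pass (log2 0.96), and after thinning to 2000 UMIs neither H2-Ab1 nor Psmb9 did, at 0.76 and 1.10.

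Transcripts of dividing cells were found in a sizeable share of cDC1. With every cell thinned to 5000 UMIs, the share with at least 2 UMIs of Mki67 and Top2a was 16.7%, 36.0% and 28.6% in cDC1, a mean of 27.1% ± 9.75 (SD, n = 3), from 19 of 70 cells. The mean was 13.1% ± 3.35 in Cd209a DC, 2.78% ± 4.81 in Ccr7 DC and 1.55% ± 0.331 in C1q-high macrophages. Every cDC1 library lay above every macrophage and Ccr7 DC library, and replicate 1 of cDC1 equalled replicate 2 of the Cd209a DC at 16.7%. Thinning left out 2 cDC1, 2 Cd209a DC and 83 macrophages that were too shallow. Without thinning the means were 40.7%, 23.2%, 20% and 3.95% in the same order. There replicate 2 of Ccr7 DC, at 33.3% of 12 cells, lay above replicate 1 of cDC1, at 24.0% of 25 cells. With 3 libraries an exact paired sign test cannot give a two-sided p below 0.25, so the shares are given with no call.

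**Figure D5:**
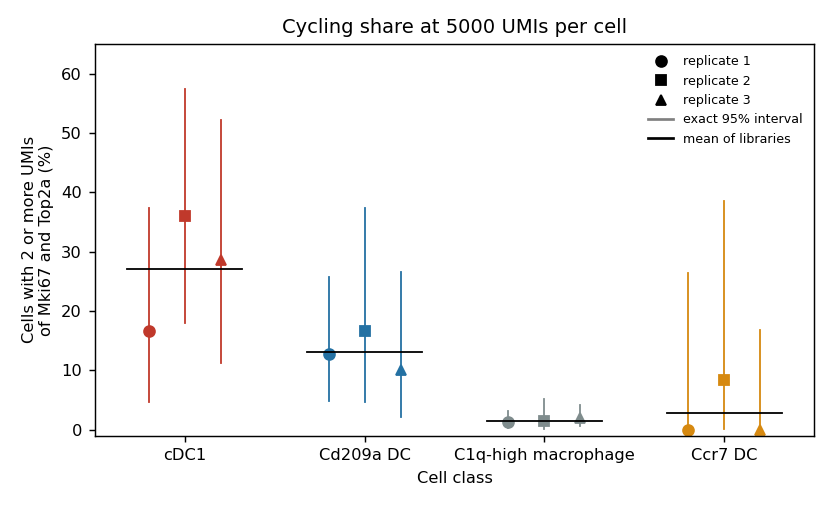
Share of cells with at least 2 UMIs of Mki67 and Top2a at 5000 UMIs per cell, by class; points are libraries, coloured lines their exact 95% intervals and black lines the means. cDC1 libraries sit between 16.7% and 36.0% and macrophage libraries between 1.28% and 1.92%.

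Cell cycle genes were higher in the summed counts of cDC1, which come from the same cells as the shares above. Against macrophages, 13 of 15 tested S phase genes and 13 of 13 tested G2 and M phase genes were higher in cDC1, and against Ccr7 DC 12 of 15 and 13 of 13. Of all genes tested, 10.7% were higher against macrophages, 6.94% against Ccr7 DC and 2.22% against the Cd209a DC. The G2 and M phase list holds Mki67 and Top2a, which define the cycling share, so these counts are no separate support for it. The filter on low counts also kept genes held by 1 class alone, and Cenpf and Ccnb2 were at 0 in Ccr7 DC. Mki67 was at 83.3, 397 and 197 CPM in cDC1, 16.3, 17.5 and 12.3 CPM in macrophages (log2 3.69 ± 0.36 (SE), edgeR adjusted p = 3.2e-05) and 14.5, 29.1 and 16.8 CPM in Ccr7 DC (log2 3.39 ± 0.44 (SE), edgeR adjusted p = 0.00042). Against the Cd209a DC, 1 of 15 S phase genes (Mcm6, log2 1.52 ± 0.26 (SE), edgeR adjusted p = 0.0058) and 2 of 13 G2 and M phase genes (Tpx2 and Hmgb2) were higher, and Mki67 did not pass (log2 0.92 ± 0.34 (SE), edgeR adjusted p = 0.16). Without replicate 1 none of Mcm6, Tpx2 and Hmgb2 passed, at log2 differences of 1.68, 2.15 and 1.63. Tpx2 and Hmgb2 also failed without replicate 2 (log2 1.86 and 0.82), and Mcm6, Tpx2 and Hmgb2 without replicate 3 (log2 1.38, 1.93 and 0.93). In cells without Mki67 or Top2a, where dividing cells were left out, Mcm6 and Hmgb2 did not pass, at 0.83 and 0.23, and Hmgb2 did not with at least 5% ribosomal protein UMIs (log2 1.15).

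Without thinning, 29 cDC1 held at least 2 UMIs of Mki67 and Top2a (6, 12 and 11 in replicates 1 to 3), 37 held none and 6 held exactly 1. Replicate 1 had too few cycling cells for a test, so levels are described only. The cycling cells were deeper, at a median of 28254 UMIs against 17333 in the cells with none. Naaa was at 1599, 1453 and 872 CPM in the cycling cells against 678, 685 and 439 CPM in the others. Psmb9 was at 395, 572 and 364 CPM in the cycling cells against 251, 173 and 260.4 CPM in the others. Tlr3 was at 85.1, 168 and 75.3 CPM in the cycling cells against 60.6, 43.2 and 54.2 CPM in the others. The libraries of the cycling cells lay above those of the others for all 3 genes. Lineage genes did the same: Irf8 was at 1076, 1237 and 1069 CPM in the cycling cells against 932, 809 and 1052 CPM in the others. Wdfy4 was at 1502, 1340 and 1344 CPM in the cycling cells against 929, 847 and 1231 CPM in the others. Xcr1, at 158, 78.8 and 80.2 CPM in the cycling cells against 89.4, 124 and 59.7 CPM in the others, and Clec9a, at 195, 144 and 146 CPM in the cycling cells against 147, 167 and 201 CPM in the others, overlapped. Itgam was at 18.2, 24.0 and 58.3 CPM in the cycling cells against 248, 162 and 141 CPM in the others, and Sirpa at 60.8, 3.43 and 99.6 CPM in the cycling cells against 138, 194 and 152 CPM in the others, in both cases without overlap. Markers of other cell types moved with them. Cd209a was undetected in the cycling cells and at 147, 48.5 and 239 CPM in the others. Lyz2 was at 1009, 449 and 520.0 CPM in the cycling cells against 3029, 5944 and 2132 CPM in the others, and Mmp12 at 1186, 236 and 311 against 2008, 1602 and 1627 CPM. Ly6c2, a monocyte gene, was at 0, 6.85 and 0 against 242, 43.2 and 244 CPM. None of these 4 overlapped. The part of cells holding them in the differences of Naaa, Psmb9, Tlr3, Irf8, Wdfy4, Itgam and Sirpa was not tested. Tcf4, a transcription factor of plasmacytoid dendritic cells, was at 116, 51.4 and 134 CPM in the cycling cells against 476, 453 and 1199 CPM in the others. Of the 3 cells with at least 40 Siglech UMIs, 2 were among the cells with none of the pair and 1 held a single UMI, and the part of such cells in the Tcf4 difference was not tested.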

How the data were processed

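Single-cell 3′ RNA sequencing (10x Genomics) had been run on 3 libraries of 1 group. The deposited files hold UMI counts per gene and cell barcode. They were made by the authors with Cell Ranger, version 6.1.2 per the submitters' processing notes and 7.0.0 per the file headers, and the genome build is not given in the sources used here. Doublets were scored with Scrublet in scanpy 1.11.5 and were removed only in an alternative. UMI counts were summed per library and class, with at least 10 cells in each sum except those of Ccr7 DC without Mki67 or Top2a (8, 8 and 15 cells). They were fitted for 4 classes together in edgeR 4.0.16 (R 4.3.3; filterByExpr, TMM, quasi-likelihood test), with the library as a block, because the classes of 1 library come from 1 cell suspension. A gene was called at a p under 0.05 after Benjamini-Hochberg adjustment and a log2 difference of 1 or more in size. Genes used by the gates were not tested.

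Of 349 genes on 28 lists, 347 were found. Named genes were list members by role, and genes among the 10 outside the lists with the largest difference in each direction, moving the same way in 3 of 3 libraries, with at least 50 CPM on the higher side. The members and lists were chosen with earlier results of these data known. The fits were tested on simulated data. Summed cDC1 counts were 555250 to 653597 UMIs per library. Alternatives were DESeq2 1.42.0, no filter, no block, pairwise fits, stricter gates, doublet removal, thinning to 2000 UMIs, removal of cells with Mki67 or Top2a, and each replicate left out. Added after seeing the data were removal of cDC1 with transcripts of other types, removal of cells with under 5% ribosomal protein UMIs, and the unthinned cycling share. Cycling levels are CPM of the cycling and other cDC1 summed apart.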

Additional observations from a re-analysis of the deposited data

How the results depend on the processing

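Against the Cd209a DC the numbers of genes higher and lower in cDC1 (172 and 206) became 289 and 509 with no filter on low counts, 57 and 32 without cells holding Mki67 or Top2a, and 62 and 68 with cells thinned to 2000 UMIs. They were 221 and 311 with only the classes compared in the fit, 252 and 329 with both Xcr1 and Clec9a required, 248 and 311 with at least 4 UMIs of the pair, and 233 and 442 without cDC1 holding transcripts of other types. Leaving out 1 replicate gave 10 to 154 higher and 15 to 207 lower. Against macrophages (828 and 1048) the counts were 446 and 473 without cells holding Mki67 or Top2a, 197 and 272 after thinning, and 1639 lower with no filter, and leaving out 1 replicate gave 650 to 794 and 693 to 1023. Against Ccr7 DC (538 and 712) they were 345 and 470 with only the classes compared, 205 and 249 without cells holding Mki67 or Top2a (from Ccr7 DC sums of 8, 8 and 15 cells), 94 and 125 after thinning, and 1350 lower with no filter, and leaving out 1 replicate gave 267 to 455 and 321 to 712. Thinning left fewer genes to test, and the cause of the other moves was not tested. Without the replicate block the counts were 187 and 185, 842 and 1014, and 562 and 749. The block changed the calls of Batf3, Clec12a, Ddx58, Ifih1 and Cd24a and of no other named gene. Of the genes not called, 3 changed sign. H2-Ab1 against the Cd209a DC was at -0.16 without cells holding Mki67 or Top2a, -0.079 after thinning, and -0.22 to 0.27 with 1 replicate left out. Zbtb46 against the Cd209a DC was at -0.040 with at least 5% ribosomal protein UMIs and -0.28 to 0.43 with 1 replicate left out. Tap1 against Ccr7 DC was at -0.051 without cells holding Mki67 or Top2a and -0.16 to 0.68 with 1 replicate left out. No other named gene changed direction under these settings. Of 37 named calls against the Cd209a DC, 7 were kept without replicate 1, 30 without replicate 2 and 20 without replicate 3, and 16 of 34 still tested without cells holding Mki67 or Top2a. In that last setting 16 of 17 macrophage calls and 9 of 12 Ccr7 DC calls were kept, after thinning 10 of 10 and 5 of 7, and without replicate 1 19 of 19 and 11 of 14. The cDC1 share (1.46%) was 2.10% with 1 UMI of Xcr1 or Clec9a and 0.818% with both required, and 1.23% to 1.65% with 1 replicate left out. The cycling share (27.1%) was 40.7% unthinned and 22.6% to 32.3% with 1 replicate left out. The test of cycling against non-cycling cDC1 and its other settings were not run, because replicate 1 had 6 cycling cells.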

Other observations

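Ligands of cDC1 receptors were looked for in the other cells of the same libraries. Xcl1, the chemokine bound by XCR1, was detected in 46 of 264 immune cells that held at least 2 UMIs of T or NK cell genes, at 53.6 ± 17.1 CPM (SD, n = 3 libraries), in 1 of 4706 immune cells without such genes and in none of the 72 cDC1. Flt3l, the ligand of FLT3, stood at 14.2 ± 2.51 CPM in the T and NK gene cells, 9.16 ± 0.611 CPM in fibroblasts and 7.71 ± 2.79 CPM in cDC1. Ifng was detected in 39 of the 264 T and NK gene cells and in no cDC1. Cxcl9, a chemokine induced by interferon gamma, was found in 3 of the 72 cDC1, at 211 CPM in replicate 1, 3.60 CPM in replicate 2 and 1.73 CPM in replicate 3. Cxcl9 was at 32.5 ± 1.49 CPM in fibroblasts, where 1424 of 9682 cells held it.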
